A study of Mus musculus with 8 samples.

Results

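Proteasome genes were taken as every row of the count table whose symbol is Psm followed by a letter from a to g and a digit, with symbols holding -ps left out. The rule rests on names alone and found 49 of the 28239 rows. Of these, 46 reached at least 2 CPM, each count scaled to the total of its library, in at least 4 of the 8 libraries, which was the level required of the 12700 genes tested. The 46 comprised the immunoproteasome genes Psmb8, Psmb9 and Psmb10 with the activator genes Psme1 and Psme2, and 41 others. One of the 41, Psmc3ip, matches by its symbol only, since its product acts in meiotic recombination and is no proteasome subunit.

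The proteasome is the large protease that degrades proteins marked with ubiquitin. Its barrel-shaped core is built of an outer ring of alpha subunits on each side and inner rings of beta subunits, of which Psmb5, Psmb6 and Psmb7 carry the catalytic sites, while a regulatory particle of ATPases and other subunits recognizes and unfolds the substrates. Interferons induce Psmb8, Psmb9 and Psmb10, which take the places of Psmb5, Psmb6 and Psmb7 in that order and so form the immunoproteasome, which is abundant in lymphocytes and yields peptides for MHC class I, and they also induce the PA28 activator encoded by Psme1 and Psme2.

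Naive CD4+ T cells were obtained from spleens of WT and Alox15-/- mice by negative selection and were grown into regulatory T cells (Tregs). Both groups received TGF-β at 5 ng/ml, IL-2 at 100 U/ml and 1 CD3/CD28 activation bead per cell and were harvested on day 2. The labels give the strain background as C57BL/6 for all 8 libraries, and the methods give an age of 10 to 12 weeks and both sexes for the mice of the study. They name Charles River as the supplier of C57/Black6 mice and The Jackson Laboratory as that of Alox15-/- mice. Genotype and supplier thus cannot be told apart. RNA was counted by MACE-seq, which reads transcripts near the 3′ end, in 4 libraries labelled Alox15-/- and 4 labelled WT, and where the Alox15 allele is disrupted is not given in the sources used here. The paper's figure legend gives n = 4 Alox15-/- mice for the transcriptome. The labels do not tie each library to a separate mouse or culture, so that the p-values measure the spread between these libraries.

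The libraries held between 3723151 and 9538962 counts. Mean Alox15 levels (SD, n = 4) were 66.8 ± 3.18 CPM for the label Alox15-/- and 5.28 ± 3.59 CPM for the label WT, which goes against the labels, so that each direction given is that of the labels (edgeR quasi-likelihood test, log2 fold change 3.65, Benjamini-Hochberg adjusted p = 1.08e-05). The 10 T cell markers summed to between 3480 and 3840 CPM in the libraries labelled Alox15-/- and between 3730 and 3940 CPM in WT, with Foxp3 and Cd4 present in every library. Of 5 marker lists of other cells, 4 had higher sums in every library labelled Alox15-/- than in any WT library. Markers of myeloid and dendritic cells summed to between 49.4 and 333 CPM against 12 to 20.7 CPM, those of NK and gamma-delta T cells to between 82.7 and 153 CPM against 30.9 to 47.9 CPM, those of erythroid cells to between 902 and 3470 CPM against 32.8 to 122 CPM, and those of mast cells and basophils to between 138 and 347 CPM against 57.2 to 82.0 CPM. Adjusted p-values under 0.05 (edgeR) were found for 5 of 12, 4 of 8, 5 of 6 and 6 of 7 listed genes, all higher. The 4 of the second list were Trdc, Tcrg-C1, Tcrg-C2 and Tcrg-C4, of gamma-delta T cells. Its NK genes overlapped between the groups, with Ncr1 lower and Eomes, Klrb1c and Klra8 higher on average. Among dendritic cell genes under the filter, Xcr1 and Flt3 were lower and Itgax higher. Kit of mast cells was at 30.7 against 31.5 CPM. Markers of B cells summed to between 5.53 and 8.1 CPM against 8.27 to 21.1 CPM, and no listed marker was at 0 in all libraries of a group.

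The promoters of Psmb8 and Psme1, which hold a match to an interferon-response element, and of Psmb9, which holds none, are shown as the 250 bases before and the 50 bases after the annotated start, read from RefSeq (GRCm38.p6) on the strand of the gene. Psmb8 and Psmb9 are neighbours in the MHC class II region of chromosome 17 (chr17:34197945-34198244, plus strand, and chr17:34187281-34187580, minus strand), and Psme1 lies on chromosome 14 (chr14:55578244-55578543, plus strand). Capitals mark letters of a GAS element (TTCNNNGAA, found in promoters that interferon-gamma activates) or of an IRF element (GAAA and GAAA with any 2 bases between, bound by IRF proteins), searched on both strands.
Psmb8: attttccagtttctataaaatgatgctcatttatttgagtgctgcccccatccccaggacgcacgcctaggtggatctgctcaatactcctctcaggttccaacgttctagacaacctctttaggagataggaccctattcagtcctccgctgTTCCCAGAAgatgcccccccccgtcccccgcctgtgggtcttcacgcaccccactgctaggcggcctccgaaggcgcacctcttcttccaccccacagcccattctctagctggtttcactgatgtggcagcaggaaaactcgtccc
Psmb9: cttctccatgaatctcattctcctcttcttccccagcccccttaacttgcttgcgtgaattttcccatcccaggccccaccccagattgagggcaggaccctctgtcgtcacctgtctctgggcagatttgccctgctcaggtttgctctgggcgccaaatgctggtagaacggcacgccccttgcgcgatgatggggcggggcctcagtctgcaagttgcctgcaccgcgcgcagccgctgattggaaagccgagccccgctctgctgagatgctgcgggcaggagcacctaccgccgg
Psme1: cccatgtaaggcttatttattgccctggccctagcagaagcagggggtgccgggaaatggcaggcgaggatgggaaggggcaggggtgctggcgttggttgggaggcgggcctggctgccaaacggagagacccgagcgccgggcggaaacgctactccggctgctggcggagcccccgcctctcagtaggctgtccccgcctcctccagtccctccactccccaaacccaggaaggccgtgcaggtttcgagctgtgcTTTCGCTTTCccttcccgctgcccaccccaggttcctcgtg
The GAS match of Psmb8 began at base -97 from the start and the IRF match of Psme1 at base 10 after it, and the windows of Psmb9, Psmb10 and Psme2 held neither. A promoter was given for 41 of the 49 members. Among their windows, the IRF letters occurred in 1 of 6 for the immunoproteasome and PA28 genes and in 4 of 38 for the others (Psmb3, Psmd4, Psmd9 and Psmg4), against 3.44% of all 32851 promoters. The GAS letters occurred in 1 of 6 and in 2 of 38 windows (Psmd2 and Psmg1), against 8.3% of all. The antioxidant response element (TGACNNNGC), to which the stress factors Nfe2l1 and Nfe2l2 bind, was found in 0 of 6 and in 6 of 38 windows, those of Psmb5, Psmb6, Psmc6, Psmd9, Psmd12 and Psme4, against 12.4% of all. A CCAAT box occurred in 1 of 6 windows, that of Psmb9, and in 14 of 38, against 37.4% of all. These matches describe letters in the windows and not sites in use.

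The question put to these genes was whether the libraries labelled Alox15-/- differed from WT. None of the 46 members passed the adjusted threshold of 0.05 in the quasi-likelihood test of edgeR, nor in the DESeq2 Wald test or limma-voom, whereas 1.24% of the 12700 genes tested passed it in edgeR. An unadjusted p under 0.05 was reached by 2 of the 46, Psmb8 and Psmb10, which were also the 2 members that reached it in DESeq2 and in limma-voom, against 7.84% of all genes in edgeR. With 1 library left out this count ranged from 0, without Alox15-/- 2, WT 1 or WT 4, to 7 without WT 2. In 0 of 46 members did the values of the 2 groups not overlap, against 5.25% of all genes. The median log2 fold change was -0.02 over the members and -0.01 over all genes tested. Relative to WT, 20 of the members had higher and 26 lower levels in the libraries labelled Alox15-/-, and 48.2% of all genes were higher.

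**Figure D1:**
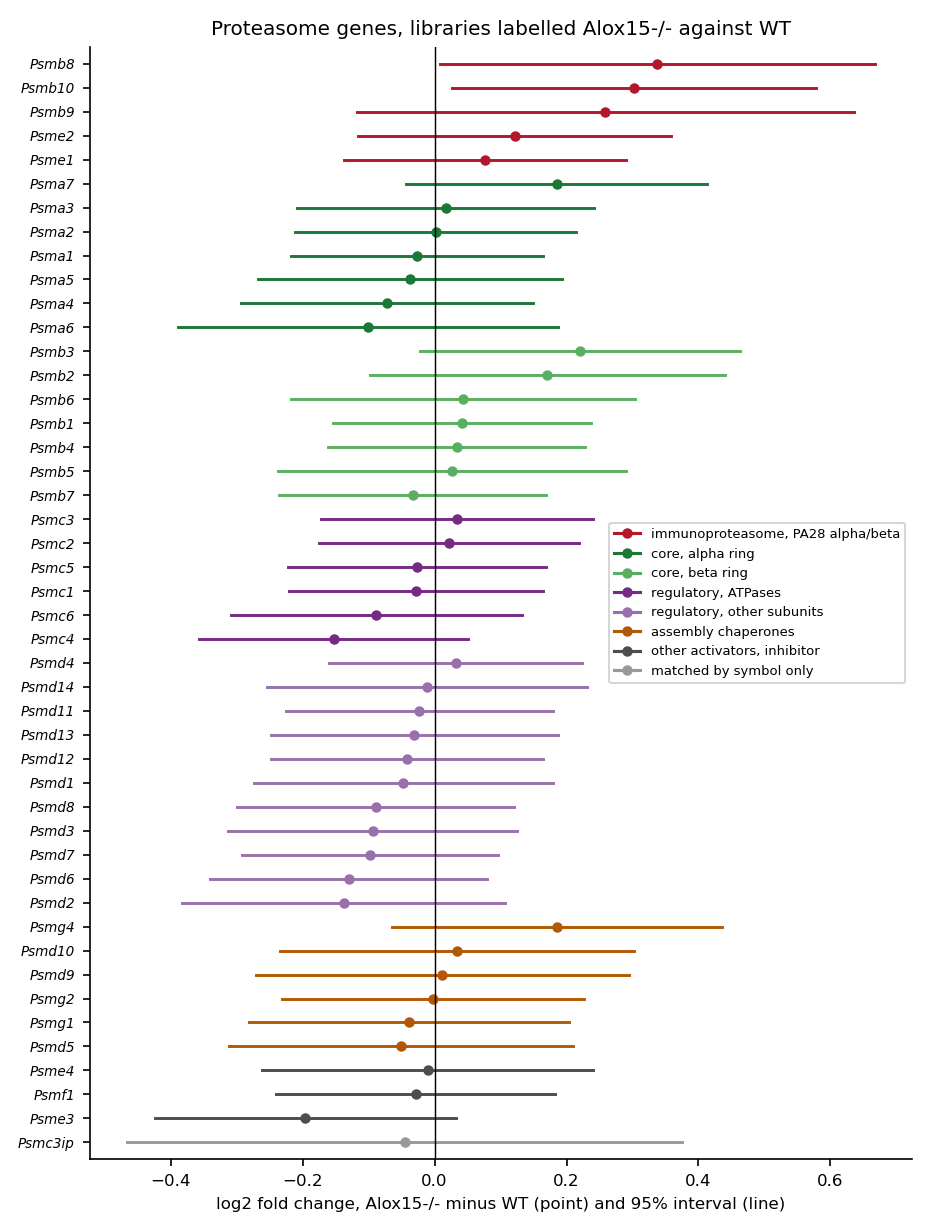
The horizontal axis gives the log2 fold change (libraries labelled Alox15-/- minus WT) of each of the 46 tested members as a point with its 95% interval as a line, ordered by role and coloured by it, with n = 4 libraries a group. The intervals of Psmb8 and Psmb10 lie above 0 and those of the other 44 members include 0.

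The immunoproteasome catalytic subunits had the largest differences of all members with all 8 libraries kept, being on average 1.2 to 1.26 times as high in the libraries labelled Alox15-/- as in WT. Psmb8 (ENSMUSG00000024338.15; GRCm38 chromosome 17, 34197721 to 34201454), the inducible counterpart of Psmb5, was at 393, 505, 484 and 390 CPM in Alox15-/- replicates 1 to 4 and at 358, 416, 393 and 233 CPM in WT replicates 1 to 4. The groups overlapped, Alox15-/- 2 and 3 stood above all WT libraries, and WT 4 stood below the other 7 libraries. Its log2 fold change was 0.34 (SE 0.154), a ratio of 1.26 with a 95% interval from 1.01 to 1.59, and the unadjusted p of 0.045 became 0.623 after Benjamini-Hochberg adjustment in edgeR.

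Psmb9 (ENSMUSG00000096727.3; chromosome 17, 34181987 to 34187764) was at 193, 246, 227 and 173 CPM in the libraries labelled Alox15-/- and at 185, 228, 179 and 108 CPM in WT. The order of libraries resembled that of Psmb8, with Alox15-/- 2 highest and WT 4 lowest, and the log2 fold change of 0.26 (SE 0.177) was within the spread between libraries (edgeR, Benjamini-Hochberg adjusted p = 0.783). The gene overlaps Tap1, the peptide transporter subunit, on the other strand, and whether the counting used strand is not given in the sources used here, so reads from the overlap cannot be assigned with certainty.

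Psmb10 (ENSMUSG00000031897.9; chromosome 8, 105935735 to 105938444), the inducible counterpart of Psmb7, was at 78.1, 108, 102 and 85.0 CPM in the libraries labelled Alox15-/- and at 75.0, 90.2, 71.5 and 64.7 CPM in WT. Here too Alox15-/- 2 was highest and WT 4 lowest of the 8. The log2 fold change was 0.30 (SE 0.129), a ratio of 1.23 with a 95% interval from 1.02 to 1.49 (edgeR, unadjusted p = 0.0335, Benjamini-Hochberg adjusted p = 0.573).

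With all 8 libraries kept, the PA28 genes differed less than Psmb8, Psmb9 and Psmb10, which was not tested. Without WT 4 the log2 fold change of Psme2, 0.14, stood above that of Psmb9, 0.09. Psme1 (chromosome 14, 55578123 to 55581529), which encodes the alpha subunit of the activator, was at 671, 661, 773 and 700 CPM in the libraries labelled Alox15-/- and at 618, 766, 609 and 666 CPM in WT. Psme2 (chromosome 14, 55587441 to 55591113), which encodes the beta subunit, was at 127, 145, 161 and 142 CPM against 134, 147, 111 and 138 CPM. For both, Alox15-/- 3 was the highest library and WT 3 the lowest, and the groups overlapped widely. Their log2 fold changes were 0.08 (SE 0.1) and 0.12 (SE 0.111), with 95% intervals of the ratio from 0.91 to 1.22 and from 0.923 to 1.28 (edgeR, Benjamini-Hochberg adjusted p = 0.904 and 0.849). With 1 library left out they were as low as 0.03 for Psme1, without Alox15-/- 3, and 0.05 for Psme2, without WT 3. Psme2b, whose end is 99% identical to that of Psme2 over 300 bases, has no row in the table, so its reads may be counted with Psme2.

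**Figure D2:**
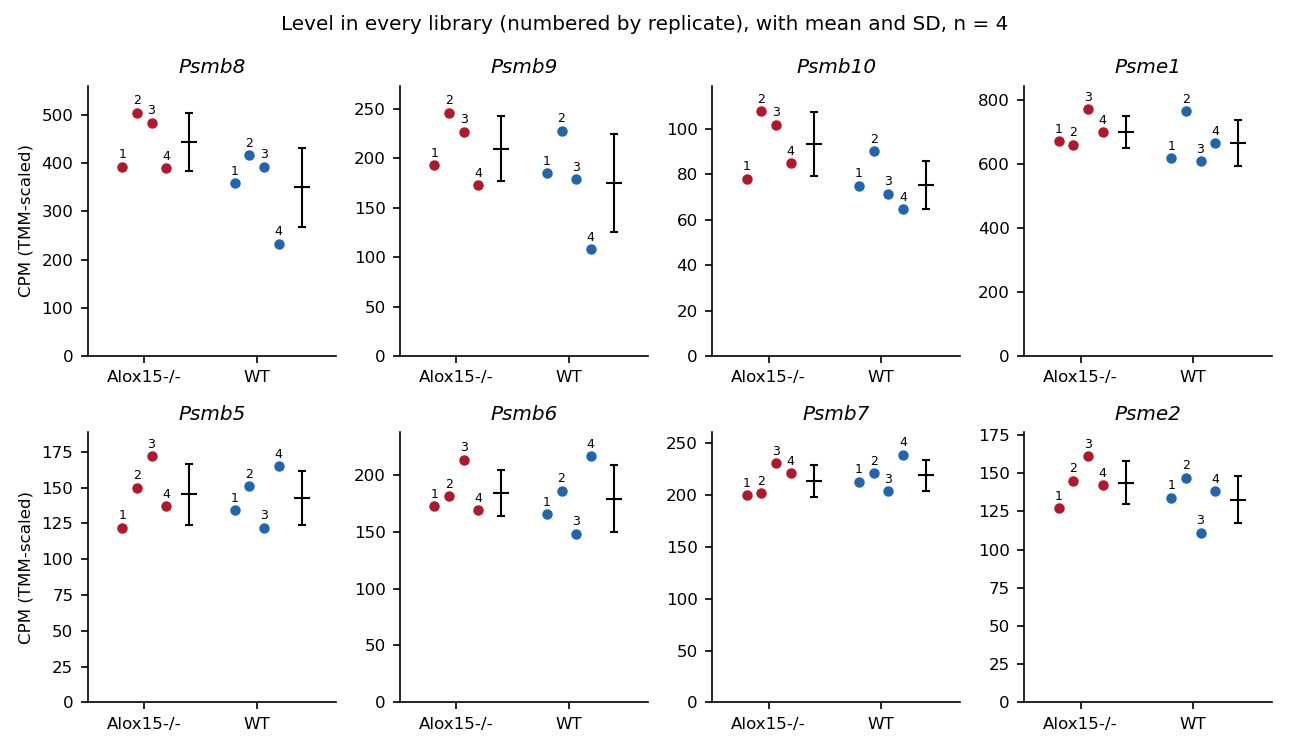
Each panel gives the TMM-scaled CPM of 1 gene from 0 upwards in the 8 libraries, numbered by replicate, with the mean and SD of each group of 4. WT 4 is the lowest library for Psmb8, Psmb9 and Psmb10 and the highest for Psmb6 and Psmb7.

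The summed level of the 3 immunoproteasome subunits was 664.6, 858.5, 812.7 and 648.0 CPM in the libraries labelled Alox15-/- and 617.8, 733.7, 643.9 and 405.4 CPM in WT. The same 2 libraries, Alox15-/- 2 and 3, held the highest sums of these subunits and the highest sums of myeloid and dendritic cell markers, 333 and 208 CPM, whereas Alox15-/- 1 and 4 had marker sums of 82.4 and 49.4 CPM. Erythroid markers were also highest in these 2 libraries, at 3290 and 3470 CPM against 1090 and 902 CPM in Alox15-/- 1 and 4. Markers of mast cells and basophils were instead highest in Alox15-/- 2 and 1, at 347 and 213 CPM against 175 and 138 CPM in Alox15-/- 3 and 4. Those of NK and gamma-delta T cells were at 136, 153, 135 and 82.7 CPM in Alox15-/- 1 to 4. In these bulk samples a larger number of cells of another type and more RNA per cell cannot be told apart, and the part of these markers in the result was not tested. WT 4 held 20.5 CPM of myeloid and dendritic cell markers, within the 12 to 20.7 CPM of the other WT libraries. It was the highest WT library for erythroid markers, at 122 CPM against 32.8 to 76.9 CPM, and for those of mast cells and basophils, at 82 CPM against 57.2 to 63.8 CPM.

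The differences were smaller without WT 4. The log2 fold change was then 0.19 for Psmb8, 0.09 for Psmb9 and 0.24 for Psmb10 (edgeR, Benjamini-Hochberg adjusted p = 0.735, 0.897 and 0.666), and Psmb3, at 0.21, stood above Psmb8 and Psmb9. Without Alox15-/- 2 the values were 0.27, 0.18 and 0.23. All 5 genes stayed higher in the libraries labelled Alox15-/- whichever library was left out, with a median log2 fold change between 0.14 without WT 4 and 0.40 without WT 2.

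**Figure D3:**
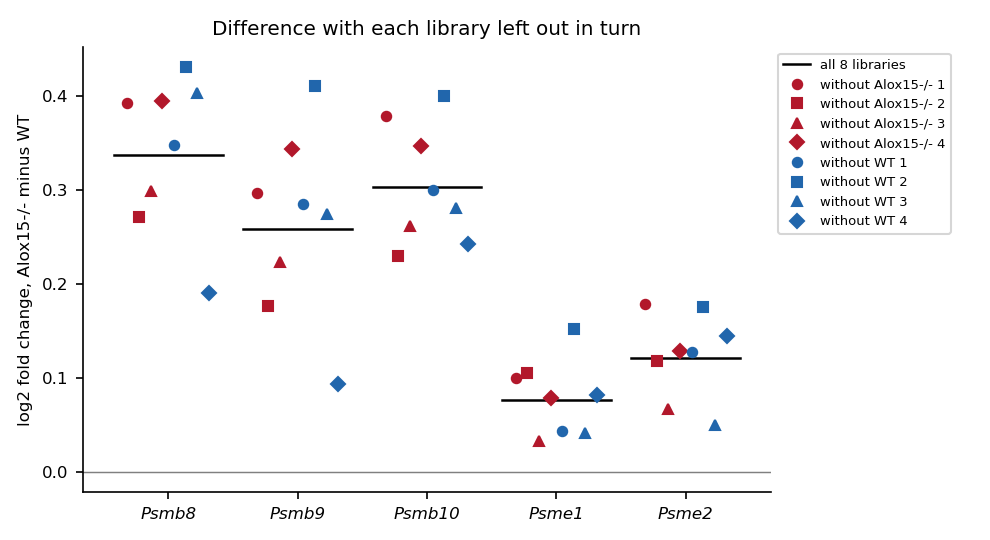
The vertical axis gives the log2 fold change (libraries labelled Alox15-/- minus WT) of the immunoproteasome and PA28 genes with all 8 libraries (line) and with each library left out in turn (symbols, red for Alox15-/- and blue for WT). The value without WT 4 is the lowest of its column for Psmb8 (0.19) and Psmb9 (0.09), and all values lie above 0.

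The constitutive counterparts that these subunits replace showed little difference. Psmb5, the chymotrypsin-like site, was at 122, 150, 172 and 137 CPM in the libraries labelled Alox15-/- and 134, 151, 122 and 165 CPM in WT (log2 fold change 0.03, SE 0.124). Psmb6, the caspase-like site, was at 172, 181, 213 and 169 CPM against 165, 186, 148 and 216 CPM (0.04, SE 0.122). Psmb7, the trypsin-like site, was at 200, 202, 231 and 221 CPM against 213, 221, 204 and 239 CPM (-0.03, SE 0.0948). For these 3 genes WT 4 was the highest of the WT libraries, the opposite of its place for the inducible subunits.

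The count of an inducible subunit over that of its constitutive counterpart was then taken within each library, which leaves out library scaling. For Psmb8 to Psmb5 the ratio was 3.21, 3.38, 2.81 and 2.85 in the libraries labelled Alox15-/- and 2.66, 2.76, 3.24 and 1.41 in WT. For Psmb9 to Psmb6 it was 1.12, 1.36, 1.07 and 1.02 against 1.12, 1.22, 1.21 and 0.501. For Psmb10 to Psmb7 it was 0.39, 0.533, 0.441 and 0.384 against 0.353, 0.409, 0.351 and 0.271. In all 3 pairs WT 4 had the lowest ratio, and in the first 2 the remaining WT libraries lay within or next to the range of the libraries labelled Alox15-/-. On the log2 scale the groups differed by 0.34, 0.25 and 0.34, and without WT 4 by 0.09, -0.06 and 0.23, so that the sign of the middle pair turned with 1 library. The ratios are a description and were not tested, and counts near the 3′ end do not give the ratio of transcripts between 2 genes.

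**Figure D4:**
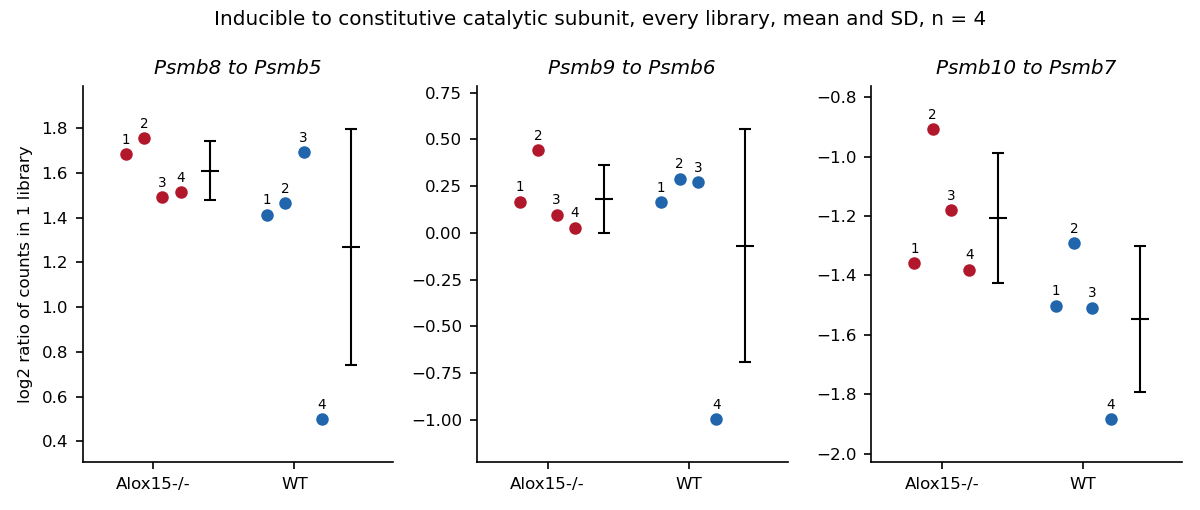
Each panel gives the log2 ratio of the counts of an inducible subunit to those of its constitutive counterpart in every library, numbered by replicate, with the mean and SD of each group of 4. WT 4 lies at 0.50, -1 and -1.88 and is the lowest library in each panel.

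The same library was low for other genes of antigen processing. WT 4 was the lowest of the 8 libraries for 16.6% of all genes tested, for 2 of the 41 other members (Psma4 and Psmb2, named after their values were seen), and for 3 of the 5 immunoproteasome and PA28 genes. Among 17 genes that supply peptides to MHC class I or present them, it was lowest for 8, namely Tap1, Tap2, Tapbp, Tapbpl, B2m, H2-K1, H2-D1 and Nlrc5. Among 17 genes of interferon receptors, STAT and IRF proteins and their inhibitors, it was lowest for 11, among them Irf1, Irf2 and Irf9. These counts were made after the values of WT 4 were seen and carry no test.

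The rest of the core particle differed little between the groups. Of the 7 alpha ring genes tested, 3 had higher and 4 lower means than in WT, and of the 7 constitutive beta ring genes 6 had higher means and 1 a lower mean, with 0 past the adjusted threshold and 0 with an unadjusted p under 0.05 in edgeR, against 7.84% of all genes. Psmb3 reached that unadjusted p under upper quartile scaling and with near-identical copies summed, and Psma7, Psmb2 and Psmb3 did so without WT 2. This core split of 9 higher and 5 lower turned on single libraries, with 3 higher and 11 lower without WT 3, 5 and 9 without Alox15-/- 3, and 12 and 2 without WT 4. Psma7 had the highest log2 fold change of the alpha ring, 0.18 (SE 0.107), from 291, 313, 320 and 314 CPM against 294, 315, 232 and 248 CPM, where WT 3 and 4 were low. Psma6 had the lowest, -0.10 (SE 0.135), from 313, 326, 393 and 363 CPM against 365, 347, 298 and 489 CPM, and it turned to 0.06 without WT 4, the library that stood highest.

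Psmb3, a structural subunit of the beta ring, had the highest log2 fold change outside the immunoproteasome, 0.22 (SE 0.114). It was at 156, 157, 187 and 154 CPM in the libraries labelled Alox15-/- and at 131, 169, 126 and 137 CPM in WT, where WT 2 stood above 3 of the libraries labelled Alox15-/- (edgeR, Benjamini-Hochberg adjusted p = 0.688). Processed copies of Psmb3 take reads as well: Gm4950, Gm14227 and Gm5356 match its last 300 bases at over 90% identity, and Psmb3 itself held between 59.6% and 65.6% of their joint counts. The joint level was 262 ± 21.4 CPM (SD, n = 4) against 222 ± 25.2 CPM (SD, n = 4), a log2 fold change of 0.24 (edgeR, Benjamini-Hochberg adjusted p = 0.592).

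Near-identical copies also touched Psma5, Psmb5, Psmb6, Psmd1 and Psmd2, whose counts are uncertain for that reason. Psmb5 held 65.4% to 70.3% of its joint counts with Gm3375, and Psmd1 39.6% to 49.6% of its joint counts with Gm21972, a transcript annotated on the same strand within it. The joint log2 fold changes were 0.02 for Psmb5, 0.04 for Psmb6, -0.06 for Psmd1, -0.13 for Psmd2 and -0.02 for Psma5, close to those of the genes alone.

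In the regulatory particle, 3 of 17 genes had higher and 14 lower means in the libraries labelled Alox15-/-, with a median log2 fold change of -0.04 and 0 past the adjusted threshold or an unadjusted p of 0.05 in edgeR. Over all genes 48.2% were higher and 7.84% reached that unadjusted p. The split of the 17 moved with scaling, to 7 higher and 10 lower under upper quartile scaling, where 54.9% of all genes were higher. With 1 library left out it moved to 6 higher and 11 lower without Alox15-/- 4 or without WT 4. The median was -0.08 without WT 3. The summed level was 2644, 2663, 2790 and 2571 CPM in the libraries labelled Alox15-/- and 2734, 2836, 2618 and 2888 CPM in WT, with overlapping groups. Each of the 17 log2 fold changes lay between -0.15 and 0.03, and their 95% intervals reached no further than a ratio of 0.767 downwards and 1.18 upwards.

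Among the ATPases, which unfold the substrate and open the core, Psmc4 had the lowest value, -0.15 (SE 0.0958), from 142, 146, 174 and 148 CPM against 172, 173, 164 and 169 CPM. Replicates 1, 2 and 4 of the label Alox15-/- lay below all WT libraries and Alox15-/- 3 above them (edgeR, Benjamini-Hochberg adjusted p = 0.767). Psmc3 had the highest, 0.03 (SE 0.0968). Psmc5 was the steadiest member in WT, at 121, 122, 119 and 119 CPM, against 114, 128, 119 and 111 CPM in the libraries labelled Alox15-/-.

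Of the other regulatory subunits, 1 was higher and 10 lower. Psmd2, a scaffold that binds ubiquitin-like domains, had the lowest log2 fold change of -0.14 (SE 0.115), from 165, 157, 166 and 132 CPM against 171, 178, 141 and 192 CPM, and it was -0.07 without either Alox15-/- 4 or WT 4. Psmd4, a ubiquitin receptor, had the highest, 0.03 (SE 0.0899), from 143, 144, 157 and 159 CPM against 146, 152, 146 and 146 CPM. Both pairs of groups overlapped.

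Of the 6 assembly chaperones tested, 3 were higher and 3 lower. Psmg4, part of a pair that helps to build the alpha ring, was at 75.0, 77.7, 88.8 and 77.3 CPM in the libraries labelled Alox15-/- and at 70.3, 83.5, 59.0 and 68.1 CPM in WT (log2 fold change 0.19, SE 0.118), where WT 2 overlapped the other group and the value was 0.11 without WT 3. Psmd5, a chaperone of the ATPase ring, had the lowest log2 fold change of -0.05 (SE 0.123), and it turned to 0.06 without WT 4, where Psmd5 was highest.

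The remaining activators and the inhibitor were all lower on average, with 0 past the threshold. Psme3, which encodes the nuclear activator PA28-gamma, had the lowest log2 fold change of all members, -0.20 (SE 0.107), from 229, 205, 223 and 184 CPM against 242, 253, 206 and 262 CPM (edgeR, unadjusted p = 0.0868, Benjamini-Hochberg adjusted p = 0.715). WT 3, at 206 CPM, lay among the libraries labelled Alox15-/- and the other 3 WT libraries above them. Its direction was thus opposite to that of Psme1 and Psme2, the genes of the related interferon-induced activator, and the difference between them was not tested. Psme4, an activator of the nucleus, had the highest of these log2 fold changes, -0.01.

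Alox15 lies on chromosome 11 (70344152 to 70352031), as do 9 tested members. Psmb6 (70525367 to 70527858) is 0.173 Mb from it and showed a log2 fold change of 0.04. The others, Psmd11, Psmb3, Psmd3, Psmc3ip, Psme3, Psmc5, Psmd12 and Psme4, lie between 10.1 and 39.5 Mb away. Over the 9 members, 2 were higher and 7 lower, with a median of -0.03 and values from -0.20 for Psme3 to 0.22 for Psmb3. Psmd11, Psmd3 and Psmd12, all of the regulatory particle, were at -0.02, -0.09 and -0.04.

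Members with tissue-restricted roles were hardly counted. Psmb11, the beta subunit of the thymic cortex, had 3 reads in all libraries together, and Psma8, the alpha subunit of germ cells, had 29, with 1 to 8 in each library. The assembly chaperone Psmg3 had 1 read, but Gm26938, annotated on the same strand over it, had means of 42.6 ± 6.73 CPM for the label Alox15-/- and 42 ± 5.79 CPM for WT (SD, n = 4), so that the level of Psmg3 cannot be read from its row. A count of 3 reads corresponds to between 0.314 and 0.806 CPM on the unscaled library totals, counting error only.

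Some libraries were low or high for many members at once, in both groups. WT 3 was the lowest of the 8 libraries for 19 of the 46 members, against 15.4% of all genes tested, and had the lowest core sum, 2933 CPM against 3256 to 3709 CPM in the other libraries. Alox15-/- 3 was highest for 14 members and WT 4 for 12, against 12.3% and 17.9% of all genes. The median member had a coefficient of variation of 10.6% in WT and 8.03% in the libraries labelled Alox15-/-. The 6667 tested genes within the range of levels of the 41 members outside the immunoproteasome and PA28 genes had medians of 11.4% and 11%. Psmc3ip, at means of 21.2 CPM for the label Alox15-/- and 22.1 CPM for WT, sets the lower end of that range, below the other members. These genes are thus not matched to the members in level. The members with the widest spread in WT were Psmb9 (28.3%), Psmb8 (23.4%) and Psma6 (21.7%), and in each of the 3 it was WT 4 that stood apart.

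**Figure D5:**
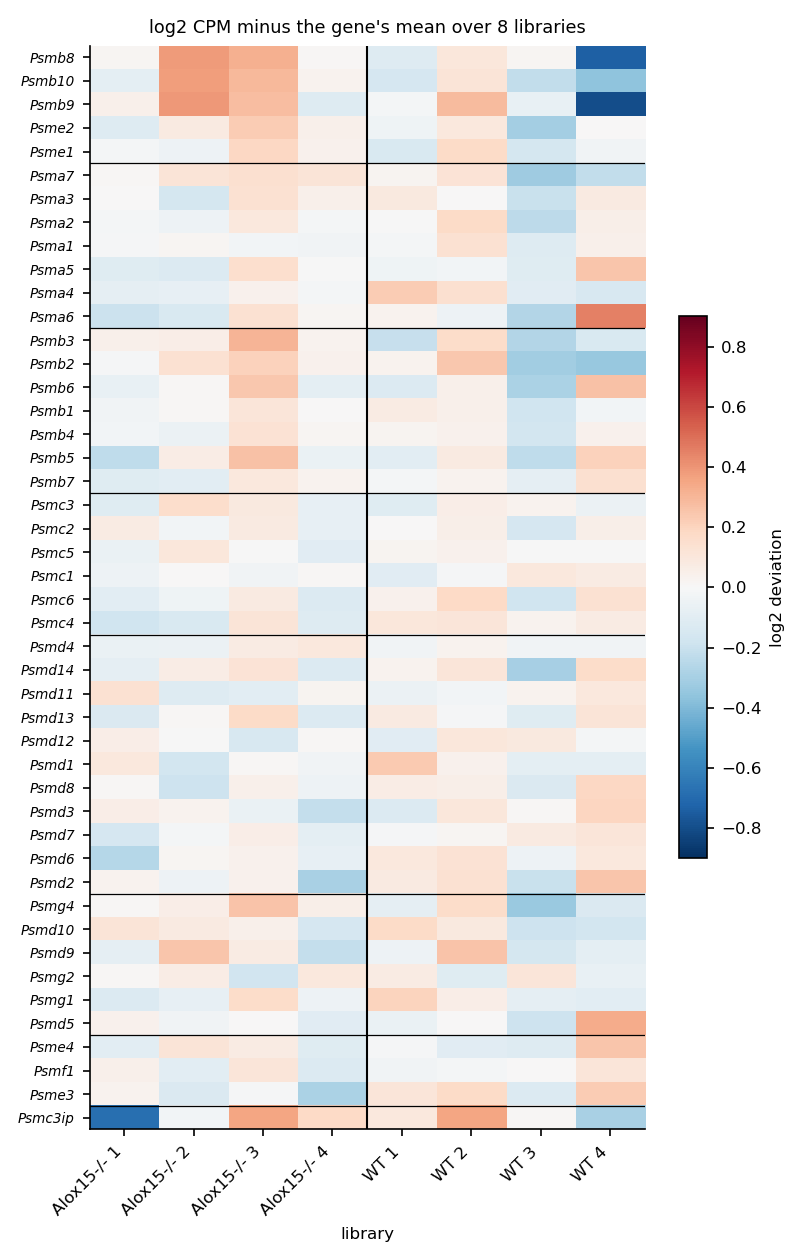
Rows are the 46 tested members grouped by role, columns are the 8 libraries, and colour gives the log2 CPM minus the mean of the gene over the 8 libraries. In WT 4, Psmb8 lies at -0.73 and Psmb10 at -0.36 while the median over the members is 0.05, and in WT 3 the median is -0.21 over the core genes outside the immunoproteasome and -0.12 over all members.

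Among 20 tested partners and regulators of the proteasome, 9 were higher and 11 lower, with 2 at an unadjusted p under 0.05 and 0 past the adjusted threshold in edgeR, DESeq2 and limma-voom alike, against 7.84% of all genes at that unadjusted p in edgeR. Pomp, the chaperone that completes the core and favours the immunoproteasome, was at 259, 293, 279 and 239 CPM against 246, 221, 218 and 237 CPM (log2 fold change 0.22, SE 0.0966, edgeR Benjamini-Hochberg adjusted p = 0.616). Ubqln1, which shuttles ubiquitinated proteins to the proteasome, was at 112, 104, 99.1 and 96.2 CPM against 117, 120, 118 and 127 CPM (-0.23, SE 0.0944, adjusted p = 0.561). The groups overlapped for Pomp, through Alox15-/- 4 and WT 1, and did not for Ubqln1, the 1 of the 20 genes without overlap, against 5.25% of all genes. Nfe2l1 and Nfe2l2, factors that raise proteasome genes under stress, were at 65.3 ± 2.55 against 67.8 ± 7.95 CPM and at 39.4 ± 4.36 against 38.4 ± 3.66 CPM (SD, n = 4).

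Of 17 genes that supply peptides to MHC class I, 9 were higher and 8 lower, again with 0 past the adjusted threshold. Unadjusted p-values under 0.05 were found for 3 in edgeR, DESeq2 and limma-voom, against 7.84% of all genes in edgeR. B2m, the light chain of MHC class I, was at 3910, 3900, 4090 and 3710 CPM against 3600, 3500, 2770 and 2760 CPM, without overlap (log2 fold change 0.31, SE 0.109, edgeR Benjamini-Hochberg adjusted p = 0.398). H2-K1, a heavy chain, had 0.22 (SE 0.101), and Npepps, an aminopeptidase of the cytosol, -0.33 (SE 0.131). The groups did not overlap for 3 of the 17, against 5.25% of all genes. Besides B2m these were Npepps and Canx, both lower, with Canx at 502 ± 46.9 against 571 ± 16.6 CPM (SD, n = 4). Tap1, which shares its locus with Psmb9, was at 292, 276, 265 and 218 CPM against 280, 256, 268 and 216 CPM, a log2 fold change of 0.04 (SE 0.113).

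Of 17 genes of interferon receptors, STAT and IRF proteins and their inhibitors, 12 were higher, 5 lower and 1 passed the adjusted threshold, where 48.2% of all genes were higher and 1.24% passed it. An unadjusted p under 0.05 was reached by 5 of the 17, against 7.84% of all genes. The gene past the threshold was Irf7, which drives type I interferon genes, at 12.3, 13, 9.78 and 8.87 CPM in the libraries labelled Alox15-/- and 3.28, 2.87, 6.12 and 5.64 CPM in WT (log2 fold change 1.26, SE 0.26, edgeR Benjamini-Hochberg adjusted p = 0.0226). Its groups did not overlap, as held for 2 of the 17 genes and for 5.25% of all genes. The adjusted p of Irf7 in edgeR was 0.0519 with the replicate number as a block and between 0.0609 and 0.103 without any 1 of Alox15-/- 1, 2 or 3 or WT 1 or 2. Irf1, which acts on promoters of immunoproteasome genes, was at 117, 102, 77.5 and 79.6 CPM against 79.4, 78.9, 83.3 and 49.7 CPM (0.35, SE 0.165), again lowest in WT 4. Its highest libraries were Alox15-/- 1 and 2, whereas those of Psmb8 were Alox15-/- 2 and 3. Socs3, Ifngr1 and Socs1 had log2 fold changes of 0.78 (SE 0.214), 0.38 (SE 0.145) and 0.29 (SE 0.108), with unadjusted p under 0.05 and adjusted p of 0.142, 0.472 and 0.458 in edgeR.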

How the data were processed

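RNA of 4 libraries labelled Alox15-/- and 4 labelled WT had been profiled by MACE-seq, while the labels name a small RNA kit. The table that the authors deposited holds counts of reads by gene symbol, not normalized. The submitters' processing notes list Bowtie, edgeR and GRCm38, with no role or version, and the handling of strand, duplicates and near-identical copies is not given in the sources used here.

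The test took genes reaching 2 CPM in 4 or more libraries, as in the paper's methods. Counts were scaled by TMM and compared by the quasi-likelihood test of edgeR 4.0.16 in R 4.3.3, two-sided, group as the only term, Benjamini-Hochberg adjustment over all 12700 genes and a threshold of 0.05. The common dispersion corresponded to a biological coefficient of variation of 14.5%. CPM are TMM-scaled, errors are SD, and intervals and SE come from the fit. Total counts had a median of 5907410.5.

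Genes named are the immunoproteasome and PA28 genes, their counterparts, the extremes of each role, members on chromosome 11 or under the filter, and pathway genes with an unadjusted p under 0.05. Psma4, Psma5, Psmb2, Psmd1, Gm26938, Canx, Tap1, Nfe2l1, Nfe2l2, single cell type markers and genes listed only by a motif or as lowest in WT 4 fall outside this rule and were named after their values were seen. Members and lists were chosen with earlier results of these data known. Alternatives were the size factors of DESeq2 1.42.0, upper quartile scaling, 2 other filters, the DESeq2 Wald test, limma-voom (limma 3.58.1), robust estimation, the replicate number as a block, a pseudocount of 5 counts in the ratios, and each library left out. Summing near-identical copies was chosen after seeing the data. Copies were found with blastn 2.17.0 (at least 90% identity over at least 200 of the last 300 bases of a transcript), positions came from GENCODE for GRCm38, in which all 49 symbols matched 1 gene, and promoters from RefSeq. Python 3.11.15, pandas 2.3.3 and matplotlib 3.10.9 served for tables and figures.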

Additional observations from a re-analysis of the deposited data

Results flagged for a closer look

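In 54 groups of 4 values examined (each named member's CPM and each subunit ratio, by group), the gap of the most distant library to its neighbour, as a share of the range of the group, exceeded Dixon's 95% critical value for 4 samples in 3, and chance alone gives about 1 in 20. For Psmb3 in the libraries labelled Alox15-/- the share was 0.891, since Alox15-/- 3 at 187 CPM stood above the other 3 at 154 to 157 CPM. For Psmd4 in WT the share was 0.898, with WT 2 at 152 CPM and the other 3 at 146 CPM. For the log2 ratio of Psmb9 to Psmb6 in WT the share was 0.902, with WT 4 at -1 and the other 3 at 0.16, 0.27 and 0.29.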

How the results depend on the processing

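No member passed the adjusted threshold under any of 17 alternatives, and of 408 values of the 24 members that meet the naming rule 22 turned sign. The median log2 fold change was between 0.14 and 0.40 for the immunoproteasome and PA28 genes when 1 library was left out and between 0.24 and 0.30 otherwise, and between -0.05 and 0.01 for the other members, of which 15 of 41 were higher, or 22 of 41 under upper quartile scaling, 12 of 41 with no filter on low counts, and from 8 of 41 without WT 3 to 22 of 41 without WT 4. Over all genes the share that was higher was 48.2%, and 54.9%, 49.3%, 50.8% and 50.1% under these alternatives in the same order. With 1 library left out, the log2 fold change ranged from -0.193 to 0.055 for Psma6, -0.061 to 0.104 for Psmb5, -0.033 to 0.148 for Psmb6, -0.067 to 0.0145 for Psmb7, -0.011 to 0.076 for Psmc3, -0.177 to 0.12 for Psmc3ip, -0.064 to 0.0033 for Psmc5, -0.074 to 0.0131 for Psmd11, -0.082 to 0.0047 for Psmd12, -0.115 to 0.062 for Psmd5 and -0.048 to 0.077 for Psme4. Without a change of sign it ranged from 0.033 to 0.153 for Psme1, 0.05 to 0.179 for Psme2, 0.12 to 0.261 for Psma7, 0.112 to 0.28 for Psmg4, 0.0055 to 0.059 for Psmd4, -0.215 to -0.065 for Psmd2 and -0.148 to -0.04 for Psmd3. Under upper quartile scaling it was 0.0017 for Psmc5, 0.0048 for Psmd11 and 0.0175 for Psme4. The cause was not tested.

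Same-numbered libraries did not deviate together (correlations of 0.0669, 0.1795, -0.1985 and -0.0168), so the numbers were not read as pairs. With the replicate block 146 genes passed in place of 158, 0 of them members, and Psmb9 joined Psmb8 and Psmb10 at an unadjusted p under 0.05, while 0 interferon pathway genes passed in place of 1. That list counted 2 with no filter on low counts and 2 in DESeq2, Socs3 being the second, and 0 to 2 with 1 library left out. Over all genes, 388 passed with no filter on low counts, and 86 to 173 with 1 library left out. Robust estimation left only Psmb10 of the members at an unadjusted p under 0.05. With 1 library left out, the log2 difference of the ratios was 0.09 to 0.48 for Psmb8 to Psmb5, -0.06 to 0.37 for Psmb9 to Psmb6 and 0.23 to 0.42 for Psmb10 to Psmb7. With 3 or 4 libraries a group and intervals as wide as a ratio of 1.01 to 1.59 for Psmb8, differences of that size cannot be told from the spread between libraries.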
